A study of Eucalyptus nitens with 12 samples.

Results

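RNA of cambial scrapings from low and high kraft pulp yield (KPY) trees of Eucalyptus nitens was compared at a single site, the Florentine trial. The comparison took the 6 Florentine libraries, 3 low KPY bulks against 3 high KPY bulks, of the 12 libraries in the series; the remaining 6 libraries came from the Meunna trial. The question was which transcripts differ in abundance in wood-forming tissue between trees at the extremes of pulp yield. All trees were of 1 species, untreated, field grown and labelled as 20 years old. Each bulk was a pool of RNA from several trees, so that a library is a mean over trees and the variation between single trees was not measured. By the study's own description low KPY trees were also of smaller stem diameter, and pulp yield class and growth cannot be told apart in these bulks.

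Wood, or secondary xylem, is laid down by the vascular cambium. Its daughter cells expand, deposit a thick secondary wall of cellulose, xylan and lignin, and then die. Kraft pulp yield is the share of wood mass that remains as fibre after lignin has been cooked out, and it depends largely on the cellulose and lignin content of these walls. Cellulose is spun at the plasma membrane by cellulose synthase complexes that follow cortical microtubules, while laccases polymerise lignin in the wall.

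Counts were available for 23917 transcripts, of which 20225 carried an identifier of an E. grandis gene, and these stood for 16980 genes. Each gene was represented by its transcript of highest mean abundance. The counts of a library summed to 44538273 to 53775708 in low KPY and to 45345079 to 45986808 in high KPY. Abundance is given as CPM, the count scaled to the size of its library, on sizes adjusted by the trimmed mean of M values (TMM), and 1 CPM stood for 40.4 to 59.1 counts. CPM is not corrected for transcript length, so a level in CPM is a share of reads and is compared between libraries, not between genes. Changes are log2 fold changes of low over high KPY with their standard error (SE), and a gene was called at a false discovery rate (FDR) under 0.05 in edgeR's quasi-likelihood test with Benjamini-Hochberg adjustment. The bulks of a class pooled different trees, and the p-values measure the spread between bulks.

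The scrapings were labelled as xylem, and markers of developing xylem stood among the most abundant genes. Of 14 such markers, 12 had a mean of at least 100 CPM, and their summed level was 3486 to 9455 CPM in low KPY and 20281 to 23767 CPM in high KPY. The 3 cambium markers found, among them a homolog of HB8 and a leucine-rich repeat kinase, summed to 528 to 836 CPM in low KPY and to 1217 to 1360 CPM in high KPY. The only phloem marker found, phloem protein 2-B10 (Eucgr.B01904), lay between 0.203 and 1.11 CPM in low KPY and between 1.23 and 2.18 CPM in high KPY. Of 11 photosynthesis genes found, 6 were called lower and 3 higher (2 and 0 without low KPY bulk 3). These shares were near those of all genes with a name, of which 53.6% were called lower and 22.9% higher. Over all genes it was 22.9% lower and 21.9% higher. The photosynthesis genes summed to 172 to 221 CPM in low KPY and to 308 to 318 CPM in high KPY. In bulk RNA, fewer cells of a type and less RNA per cell cannot be told apart, and the part that the mix of cells had in the changes below was not tested.

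Bulks of a class lay at similar distances in low and high KPY. The root mean square log2 difference over all genes was 0.69 between low KPY bulks 1 and 2, 0.51 between bulks 1 and 3 and 0.51 between bulks 2 and 3, and in high KPY it was 0.49, 0.55 and 0.68 in the same order. Across the classes it ran from 0.71, between low KPY bulk 1 and high KPY bulk 2, to 1.45, between low KPY bulk 2 and high KPY bulk 3. In abundant genes low KPY bulk 2 was the farthest of its class, at 0.62 from bulk 1 and 0.44 from bulk 3 against 0.26 between those bulks. Gene by gene, the standard deviation of log2 CPM was larger in low than in high KPY in 62.0% of all genes and in 73.5% of abundant genes. Counts were also less concentrated in low KPY, where the 100 highest transcripts took 11.1% to 12.1% of counts, than in high KPY, where they took 16.8% to 18%. The TMM factors followed the same split, with 1.08 to 1.17 in low KPY and 0.88 to 0.92 in high KPY.

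A large share of the genes differed between the classes, and with TMM sizes the numbers in each direction were nearly equal. This balance depends on the scaling, since library size alone gave 2035 lower and 7196 higher calls. Of the 16980 genes, 7604 (44.8%) were called, 3883 (22.9%) lower and 3721 (21.9%) higher in low KPY. The CPM ranges of the classes were separate in 10812 genes (63.7%). Over all 23917 transcripts 9450 (39.5%) were called, and of the 3692 without a gene identifier 783 (21.2%). A change of at least 2-fold was called in 1407 lower genes (8.29%) and in 1405 higher genes (8.27%). Large changes were mostly increases, since 434 genes were at least 4-fold higher in low KPY and 55 at least 4-fold lower, and 135 genes were at least 8-fold higher. In these 135 genes high KPY bulk 3 was the lowest high KPY bulk in 85.2%. The median log2 difference of high KPY bulks 1 to 3 from the low KPY mean was -3.15, -3.0 and -5.37. The smallest FDR of any transcript was 0.0148. The number of genes called by the quasi-likelihood test changed widely with the library left out. Without low KPY bulks 1, 2 and 3 in turn it was 8206, 5458 and 2169. Without high KPY bulk 2 it was 6218, and it was 0 without high KPY bulk 1 or without high KPY bulk 3. In these last fits 7910 and 7684 genes had an unadjusted p under 0.05, the smallest FDR was 0.0575 and 0.0512, and edgeR's exact test on the same 5 libraries called 5067 and 5020 genes.

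The direction of change depended on abundance. Among the 2083 abundant genes, those with a mean of at least 100 CPM, 1309 (62.8%) were called, and 1057 (50.7%) were lower against 252 (12.1%) higher in low KPY. The 8878 moderate genes, between 10 and 100 CPM, were divided evenly, with 4482 (50.5%) called, 2197 (24.7%) lower and 2285 (25.7%) higher. Among the 6019 rare genes, below 10 CPM, 1813 (30.1%) were called, with 629 (10.5%) lower and 1184 (19.7%) higher. The median log2 fold change was -0.32 in abundant, 0.02 in moderate and 0.15 in rare genes, beside 0.02 over all genes. The median SE rose from 0.12 in abundant to 0.27 in rare genes, so that a rare gene needed a larger change to be called. Scaling by library size alone moved the median of all genes to 0.33 and left 2035 lower against 7196 higher calls, with 48.4% rather than 80.7% of the called abundant genes lower. Without low KPY bulk 2, 84.8% of the called abundant genes were lower.

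**Figure D1:**
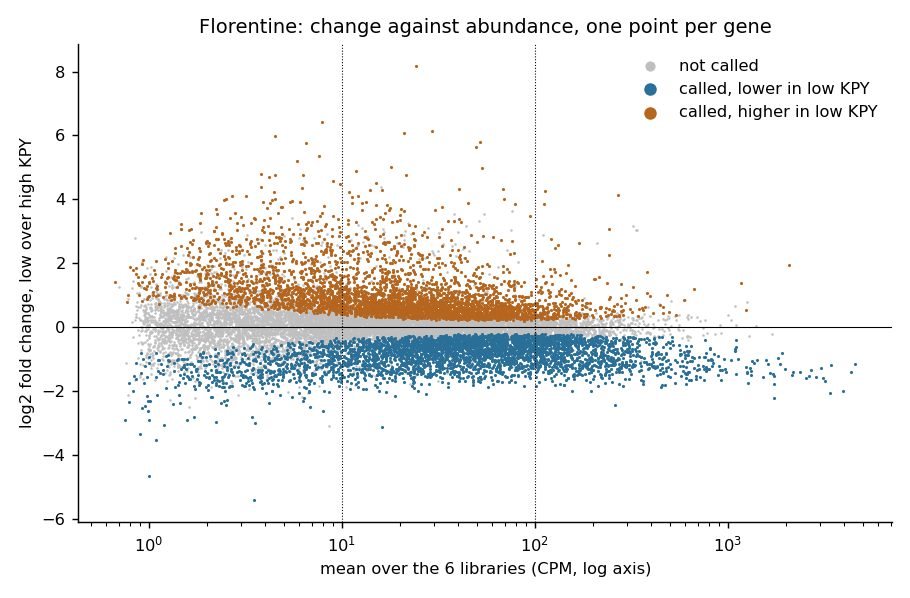
Each point is a gene, with its mean CPM over the 6 Florentine libraries on a log axis and its log2 fold change of low over high KPY. Dotted lines mark 10 and 100 CPM; the called genes right of 100 CPM lie mostly below 0 (1057 of 1309), and changes above 4 are found from rare to abundant genes.

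The abundant genes carried a larger share of the reads in high KPY wood. They took 57.5%, 53.1% and 55.9% of the gene CPM in low KPY bulks 1 to 3 and 64.5%, 63.4% and 64.7% in high KPY bulks 1 to 3. The groups did not overlap. The 10 highest genes were all called lower in low KPY, and of the 100 highest 80 were called lower, 3 higher and 17 not. The 10 highest genes summed to 23230, 11305 and 19490 CPM in the low KPY bulks and to 52261, 47768 and 53937 CPM in the high KPY bulks.

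Most of these 10 genes have a known role in building the wall. They were 3 tubulins, subunits of the microtubules that guide cellulose deposition, a chitinase-like protein, a fasciclin-like arabinogalactan protein (FLA), sucrose synthase 1, S-adenosylmethionine synthetase 2, O-methyltransferase 1, cellulose synthase A4 and a Rossmann-fold protein. The tubulin Eucgr.F02183 had 2090, 1009 and 1658 CPM in the low KPY bulks and 6224, 5897 and 6830 CPM in the high KPY bulks. Every low KPY bulk lay far below every high KPY bulk, and the fall was the largest among the tubulins of this set (log2 fold change -1.99, SE 0.30, edgeR FDR 0.0148). The highest gene of all, the tubulin Eucgr.F00470, had 3379, 2005 and 3192 CPM in low KPY and 6365, 6068 and 6531 CPM in high KPY (-1.14, SE 0.25, edgeR FDR 0.0192). Chitinase-like protein 2 (Eucgr.H04034), whose Arabidopsis relatives act in cellulose deposition, had 2850, 1575 and 2725 CPM in low KPY and 6629, 5789 and 6632 CPM in high KPY (-1.41, SE 0.28, edgeR FDR 0.0165). O-methyltransferase 1 (Eucgr.A01397) methylates lignin precursors in Arabidopsis, and it had 2424, 1646 and 2173 CPM in low KPY and 4982, 4443 and 4808 CPM in high KPY (-1.19, SE 0.21, edgeR FDR 0.0152). S-adenosylmethionine synthetase 2 (Eucgr.A01021), which makes the methyl donor of such reactions, fell to a like extent (-1.29, SE 0.25, edgeR FDR 0.0159). In all 10 genes low KPY bulk 2 was the lowest library.

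**Figure D2:**
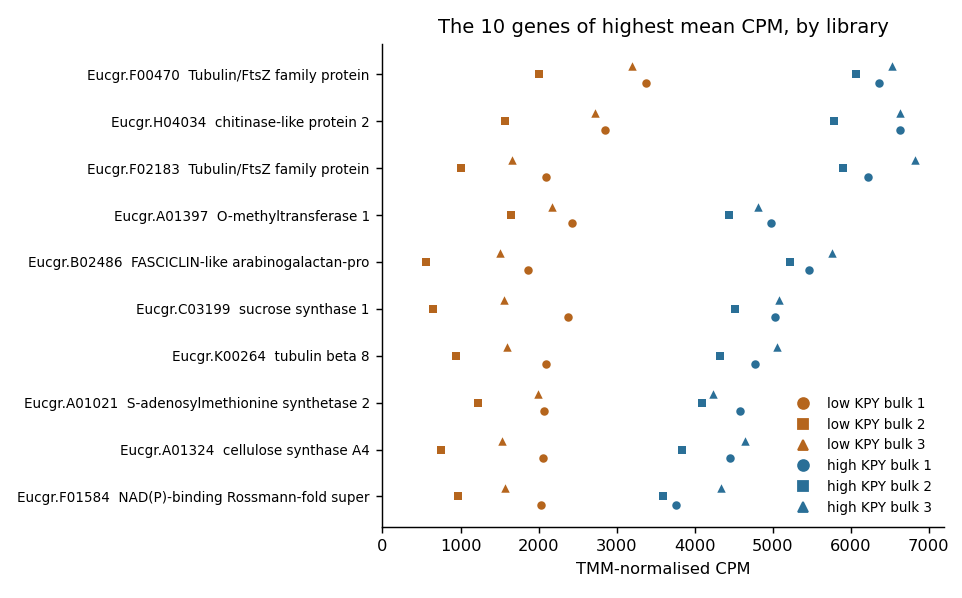
TMM-normalised CPM of the 10 genes of highest mean CPM, with 1 point per library, low KPY in brown and high KPY in blue. All low KPY points lie left of all high KPY points in each gene, and the square of low KPY bulk 2 is the lowest throughout.

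Names of genes came from the supplementary lists of the study, which hold mostly transcripts that it called, so that 3581 of 16980 genes (21.1%) had a name and 49.4% of lower against 22% of higher called genes did. Named genes are therefore no independent sample, and 76.5% of them were called. Of the named genes 1918 (53.6%) were called lower and 820 (22.9%) higher, with a median of -0.81, and the counts of the gene lists below are to be set beside these shares as well as beside the 22.9% lower, 21.9% higher and median of 0.02 over all genes. A further source, the list of genes with allele counts, required a minimum read depth and held mostly abundant genes, 698 of 945. By the study's description it lists SNPs whose allele frequencies differed between low and high KPY, tested on reads of these same libraries. It is therefore no independent sample either. Of these 945 genes 464 were called lower and 121 higher (61.9% in all), with a median of -0.31, close to the 62.8% and the -0.32 of all abundant genes. Most counts of the lists below were smaller without low KPY bulk 3, and the quasi-likelihood test called no gene without high KPY bulk 1 or bulk 3. Without low KPY bulk 3 the smallest FDR of that test was 0.0484, so all its calls lay just under the threshold of 0.05. Over all genes, edgeR's exact test on the same libraries called 5447 and DESeq2 7521.

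Most genes of cellulose synthesis were lower in low KPY. The list of 18 held cellulose synthases of primary as well as secondary walls and COBRA-like proteins. Of its members 17 were called lower and none higher, with a median of -1.47, and 9 of 9 from the list with allele counts were lower. The count of lower members was 14 without low KPY bulk 2 and 2 without low KPY bulk 3. Cellulose synthase A4 (Eucgr.A01324), a catalytic subunit of the secondary wall complex, had 2057, 752 and 1531 CPM in the low KPY bulks and 4460, 3843 and 4651 CPM in the high KPY bulks. The groups did not overlap (-1.58, SE 0.37, edgeR FDR 0.0216). A further member of the family, Eucgr.C00246, had 1989, 738 and 1344 CPM in low KPY and 4154, 3476 and 4214 CPM in high KPY, with nearly the same change (-1.54, SE 0.36, edgeR FDR 0.0219). The 10 sucrose synthases, enzymes that can supply UDP-glucose to cellulose synthases, held 8 called lower and none higher, with a median of -1.68, but none was called without low KPY bulk 3. Sucrose synthase 1 (Eucgr.C03199) had 2374, 643 and 1562 CPM in low KPY and 5029, 4513 and 5086 CPM in high KPY (-1.68, SE 0.46, edgeR FDR 0.0304). Sucrose synthase 4 (Eucgr.C00769) had 480, 197 and 413 CPM in low KPY and 1378, 1017 and 1053.65 CPM in high KPY (-1.66, SE 0.34, edgeR FDR 0.0173). Sucrose synthase 3 (Eucgr.H01094) was not called and overlapped, with 342 to 362 CPM in low KPY and 338 to 403 CPM in high KPY (-0.06, SE 0.10, edgeR FDR 0.661).

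Fasciclin-like arabinogalactan proteins held the largest falls among abundant genes. FLAs are cell surface glycoproteins, and in Arabidopsis and Eucalyptus members of the FLA11 and FLA12 group affect the cellulose content and stiffness of stems. All 11 members measured were called lower, with a median of -1.52 and changes from -2.64 to -1.06, and all 11 were also called lower without low KPY bulk 2, against 6 without low KPY bulk 3. Their summed level was 3820, 1471 and 3446 CPM in low KPY and 11466, 10453 and 11980.3 CPM in high KPY. Eucgr.J00937 had 78.8, 29.1 and 134 CPM in the low KPY bulks and 457, 392 and 470 CPM in the high KPY bulks. This was the largest fall of any abundant gene (-2.45, SE 0.51, edgeR FDR 0.0179). Its neighbour Eucgr.J00938 had 691, 325 and 815 CPM in low KPY and 2898, 2667 and 2985.3 CPM in high KPY (-2.22, SE 0.35, edgeR FDR 0.0148). Eucgr.B02486 had 1861, 555 and 1501.03 CPM in low KPY and 5460, 5217 and 5766 CPM in high KPY (-2.07, SE 0.44, edgeR FDR 0.0182). Neighbouring copies of a family can share reads, so the split of reads between such members is uncertain.

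The cytoskeleton followed the same direction. All 15 tubulins and profilins were called lower, with a median of -1.34, in the fit without low KPY bulk 2 as well, and 5 of them without low KPY bulk 3. Tubulin beta 8 (Eucgr.K00264) had 2100.5, 936.9 and 1596 CPM in low KPY and 4774, 4320 and 5053 CPM in high KPY (-1.61, SE 0.31, edgeR FDR 0.0163). Actin 3 (Eucgr.K01841), of the filaments along which vesicles move, had 124, 29.4 and 78.4 CPM in low KPY and 273, 300 and 363 CPM in high KPY. The ranges were well separated, although low KPY bulk 2 lay far below the other low KPY bulks (-2.01, SE 0.49, edgeR FDR 0.0227).

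Genes of xylan and lignin, the other main polymers of the secondary wall, were lower as well. Of 19 xylan synthesis genes 14 were called lower and none higher (median -1.24), and of 15 lignin synthesis genes 13 were lower and none higher (median -1.07). Without low KPY bulk 2 the lower members were 13 and 14, and without low KPY bulk 3 they were 4 and 7. Most members of the xylan list were named only as proteins of unknown function (DUF579), so their part in xylan synthesis is assumed from the family. Among xylan genes, the DUF579 protein Eucgr.I02784, of a family that methylates or arranges xylan in Arabidopsis, had 741, 378 and 641 CPM in low KPY and 1631, 1569 and 1667 CPM in high KPY (-1.47, SE 0.26, edgeR FDR 0.0152). UDP-xylose synthase 6 (Eucgr.J00040), which makes the sugar donor of xylan, had 635, 272 and 463 CPM in low KPY and 1155, 927 and 1162 CPM in high KPY (-1.24, SE 0.31, edgeR FDR 0.0244). In the lignin pathway, phenylalanine ammonia-lyase 2 (Eucgr.J01079), the entry enzyme, had 515, 359 and 463 CPM in low KPY and 950, 824 and 795 CPM in high KPY (-0.94, SE 0.17, edgeR FDR 0.0152). The next enzyme, cinnamate-4-hydroxylase (Eucgr.J01844), had 650, 518 and 740 CPM in low KPY and 1390, 1161 and 1296 CPM in high KPY (-1.01, SE 0.17, edgeR FDR 0.0149). Laccase 17 (Eucgr.A01282), which oxidises monolignols in the wall, had 369, 172 and 327 CPM in low KPY and 735, 621 and 733 CPM in high KPY (-1.27, SE 0.28, edgeR FDR 0.0196). In all 5 genes the low and high KPY bulks did not overlap.

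Transcription factors of the MYB and NAC families went both ways. Of 25 MYB factors 17 were called lower and 5 higher, and of 18 NAC factors 8 were lower and 8 higher. These counts were 6 and 2 MYB factors and 4 and 6 NAC factors without low KPY bulk 3. MYB46 (Eucgr.B03684), a master regulator of secondary wall genes in Arabidopsis, had 105, 41.3 and 78.6 CPM in low KPY and 188, 157 and 194 CPM in high KPY (-1.26, SE 0.32, edgeR FDR 0.026). NAC domain containing protein 12 (Eucgr.E01053), known as SND1 in Arabidopsis and acting upstream of MYB46, had 118, 69.3 and 101 CPM in low KPY and 230, 197 and 221 CPM in high KPY (-1.17, SE 0.20, edgeR FDR 0.0149). Neither gene overlapped between the classes. NAC domain protein 66 (Eucgr.D01671), the relative known as NST2, fell to a like extent (-1.22, SE 0.24, edgeR FDR 0.0161). In the other direction, NAC transcription factor-like 9 (Eucgr.E01095) rose from 118, 120 and 112 CPM in high KPY to 161, 259 and 199 CPM in low KPY (0.82, SE 0.17, edgeR FDR 0.0179).

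Genes of cell expansion, water flow and the cambium also had lower members. Among all named genes 53.6% were called lower, and among abundant named genes 65.5%. The lower shares of the expansin and xyloglucan list and of the aquaporins were below the 53.6%. Of 24 pectin enzymes 17 were called lower and none higher (median -1.30), and of 15 expansins and xyloglucan enzymes 7 were lower and 2 higher (median -1.27). The lower members of these lists were 2 and 1 without low KPY bulk 3, and no member was then higher. Expansin A6 (Eucgr.B02355), of a family that loosens walls, had 259, 83.1 and 216 CPM in low KPY and 501, 550 and 566 CPM in high KPY (-1.53, SE 0.39, edgeR FDR 0.0264). Against this direction, expansin A13 (Eucgr.C02271), singled out after its values were seen, had 17.0, 162 and 130 CPM in low KPY and 3.43, 6.14 and 0.297 CPM in high KPY (4.97, SE 1.18, edgeR FDR 0.0222). Of 8 aquaporins 4 were lower and none higher, with 2 lower without low KPY bulk 3. The plasma membrane aquaporin PIP1C (Eucgr.D01836) had 1424, 732 and 1431 CPM in low KPY and 3122, 3151 and 3279 CPM in high KPY (-1.41, SE 0.28, edgeR FDR 0.0169). All 3 cambium markers were called lower, and HB8 (Eucgr.C00605), a homeobox gene of the procambium in Arabidopsis, had 214, 154 and 158 CPM in low KPY and 258, 252 and 263 CPM in high KPY (-0.56, SE 0.14, edgeR FDR 0.0263). Of 16 histones and cyclins 10 were lower and 1 higher (median -1.19), and the 2 from the list with allele counts had a median of -0.04. Without low KPY bulk 3 no cambium marker was called, and 2 histones and cyclins were lower and 1 higher.

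Most ribosomal protein genes, an abundant group that builds the translation machinery, were not called. Of 66 measured, 51 were not called, 6 were lower and 9 higher, with a median of 0.12, and 58 of them came from the list with allele counts. Their summed level of 12124 to 12862 CPM in low KPY overlapped the 11078 to 12844 CPM in high KPY. Scaling by library size alone gave a median of 0.43 and 45 higher members. Heat shock protein 70 (Eucgr.J00025), an abundant chaperone, had 1144, 1134 and 1208 CPM in low KPY and 1352, 1456 and 1417 CPM in high KPY and was not called (-0.28, SE 0.12, edgeR FDR 0.11).

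**Figure D3:**
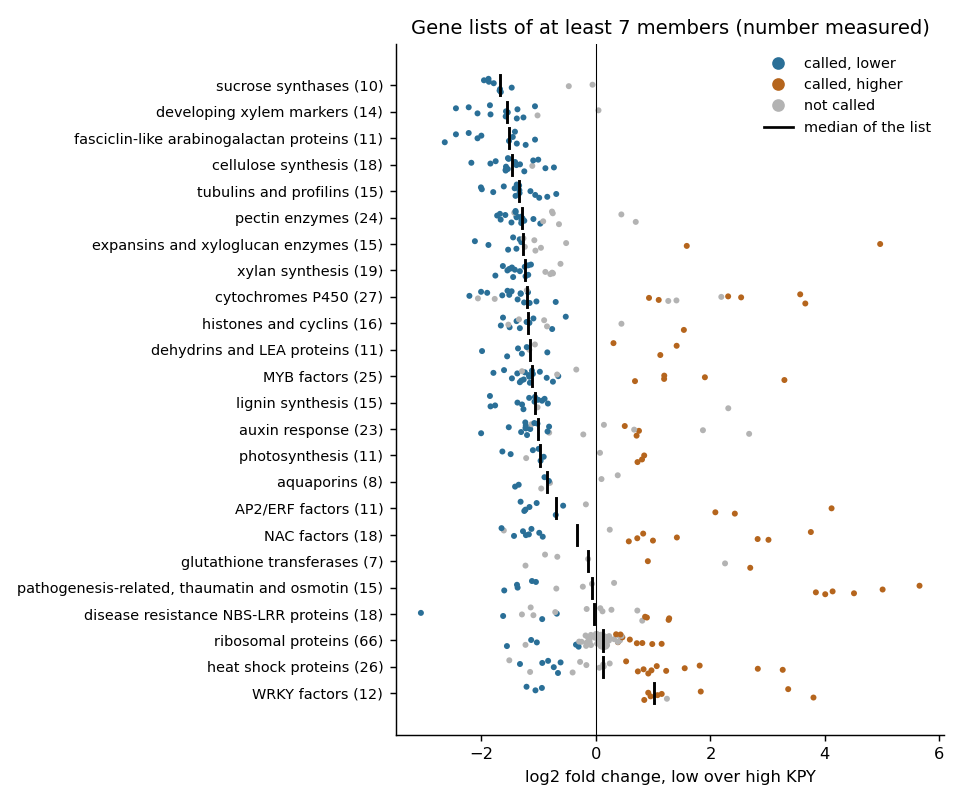
Log2 fold changes of low over high KPY for the members of each gene list with at least 7 members measured, blue when called lower, brown when called higher and grey when not called, with the median as a black bar. Wall and cytoskeleton lists have medians between -1.68 and -1.07, ribosomal proteins gather near 0.12, and the WRKY factors have a median of 1.01; most members were named through lists of called genes.

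Lists of defence and stress genes held increases as well as falls. Of 12 WRKY factors, regulators of defence responses, 8 were called higher and 3 lower, with a median of 1.01, and without low KPY bulk 3 the counts were 4 and 2. WRKY32 (Eucgr.C00348) had 133, 171 and 132 CPM in the low KPY bulks and 69.7, 86.4 and 50.8 CPM in the high KPY bulks (1.08, SE 0.21, edgeR FDR 0.0165). WRKY33 (Eucgr.B04010), singled out after its values were seen and a regulator of the response to fungi in Arabidopsis, had 14.2, 19 and 12 CPM in low KPY and 0.765, 1.95 and 0.52 CPM in high KPY (3.80, SE 0.51, edgeR FDR 0.0148). WRKY13 (Eucgr.I00305), which promotes stem sclerenchyma in Arabidopsis, went the other way, from 134, 130 and 140 CPM in high KPY to 73.1, 41.0 and 60.4 CPM in low KPY (-1.21, SE 0.20, edgeR FDR 0.0149). The 3 bZIP factors held 2 called higher and 1 called lower. The lower one, Eucgr.G03135, had 27.2, 11.9 and 22.2 CPM in low KPY and 53.1, 54.6 and 60.3 CPM in high KPY (-1.46, SE 0.29, edgeR FDR 0.0165). Basic leucine zipper 9 (Eucgr.C03986) had 4.59, 13 and 12.9 CPM in low KPY and 0.469, 1.16 and 0.372 CPM in high KPY (3.92, SE 0.61, edgeR FDR 0.0148). Of 26 heat shock proteins 11 were higher and 6 lower, with 5 and 7 without low KPY bulk 2, 3 and 1 without low KPY bulk 3 and 15 and 5 on library size alone.

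Pathogenesis-related, thaumatin and osmotin genes went both ways, with 6 higher and 5 lower of 15, and 5 and 1 without low KPY bulk 3. The higher members had the larger changes. The MLP-like protein gene Eucgr.A00188, of the family of major latex proteins, had 167, 708 and 650 CPM in low KPY and 55.9, 23.2 and 7.85 CPM in high KPY (4.13, SE 0.88, edgeR FDR 0.0182). Eucgr.A00172, of the same name, had 140, 353 and 137 CPM in low KPY and 23.4, 13.5 and 7.06 CPM in high KPY (3.84, SE 0.59, edgeR FDR 0.0148). Osmotin 34 (Eucgr.D01888), an antifungal protein of the thaumatin family singled out after its values were seen, had 113, 82.9 and 94.5 CPM in low KPY and 1.31, 3.89 and 0.545 CPM in high KPY (5.65, SE 0.67, edgeR FDR 0.0148). No low KPY bulk of these genes overlapped a high KPY bulk. The thaumatin Eucgr.B00944 was lower, with 166, 60.8 and 105 CPM in low KPY and 240, 381 and 389 CPM in high KPY (-1.60, SE 0.38, edgeR FDR 0.0225). Disease resistance genes of the NBS-LRR class, receptors of pathogen proteins, held 4 higher, 4 lower and 10 not called of 18, and without low KPY bulk 3 it was 1 in each direction.

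Besides the MLP-like proteins, the largest increases of abundant genes were in a gene with no name and in a metallothionein. Eucgr.F00590, without a name in the sources used here, had 127, 323 and 197 CPM in low KPY and 17.5, 15.7 and 0.52 CPM in high KPY (4.26, SE 1.07, edgeR FDR 0.0251). High KPY bulk 3 lay far below the other high KPY bulks. Metallothionein 2A (Eucgr.B02368), a metal-binding protein, had 493, 493 and 309 CPM in low KPY and 48.1, 94.2 and 11.0 CPM in high KPY, again lowest in high KPY bulk 3 (3.08, SE 0.73, edgeR FDR 0.0217). The strongest falls of moderate genes were led by a leucine-rich repeat kinase, Eucgr.J02919, with 6.28, 1.31 and 2.42 CPM in low KPY and 14.2, 48.7 and 24.5 CPM in high KPY (-3.13, SE 0.71, edgeR FDR 0.0199). Respiratory burst oxidase homolog B (Eucgr.H04514), which makes superoxide at the cell surface, had 9.39, 3.53 and 6.97 CPM in low KPY and 30.8, 28.9 and 22.4 CPM in high KPY (-2.05, SE 0.35, edgeR FDR 0.0152). PCaP1 (Eucgr.K01501), a membrane protein that binds calcium and microtubules in Arabidopsis, had 9.87, 2.90 and 7.85 CPM in low KPY and 25.5, 31.4 and 35.1 CPM in high KPY (-2.16, SE 0.43, edgeR FDR 0.0168). In each of these 3 genes low KPY bulk 2 was again the lowest library.

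Rare genes held changes of more than 8-fold in both directions, and 77 of them rose at least 8-fold. The ankyrin repeat gene Eucgr.C03917 had 0, 0.254 and 0.203 CPM in low KPY and 4.12, 4.58 and 12.0 CPM in high KPY (-5.43, SE 0.91, edgeR FDR 0.0149). It was the strongest fall of all genes and rested on few counts in low KPY. The malectin receptor-like kinase Eucgr.B00543, of a family that senses the cell wall, had 0.0418, 0.271 and 0.186 CPM in low KPY and 2.07, 1.47 and 2.48 CPM in high KPY (-3.54, SE 0.56, edgeR FDR 0.0148). Among the increases, Eucgr.H04013, with no name, had 23.1, 16.6 and 4.73 CPM in low KPY and 0.987, 0 and 0.0991 CPM in high KPY (5.35, SE 1.22, edgeR FDR 0.0203). Eucgr.H03539, also unnamed, had 35, 2.41 and 1.22 CPM in low KPY and 0.444, 0.166 and 0.0991 CPM in high KPY, most of it in low KPY bulk 1 (5.75, SE 1.57, edgeR FDR 0.0308).

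The strongest increase of all genes was that of Eucgr.E00360. It had 122, 9.85 and 13 CPM in low KPY and 0.42, 0.0475 and 0.0248 CPM in high KPY (8.18, SE 1.55, edgeR FDR 0.0158), with most of its low KPY reads in bulk 1, although bulks 2 and 3 also lay far above every high KPY bulk. Several of the next were neighbours. Gene identifiers of E. grandis carry a letter for the chromosome and a number in order along it, and 6 genes between Eucgr.H03074 and Eucgr.H03082 on chromosome 8 were each called at least 8-fold higher, a run found after the values were seen. Eucgr.H03078 had 154, 65.1 and 86.3 CPM in low KPY and 4.67, 0.403 and 0.396 CPM in high KPY (5.80, SE 1.03, edgeR FDR 0.0152). Eucgr.H03082 had 77.8, 42.1 and 53.0 CPM in low KPY and 1.73, 0.475 and 0.272 CPM in high KPY (6.12, SE 0.67, edgeR FDR 0.0148). Eucgr.H03081 had 18.1, 13.5 and 15.2 CPM in low KPY and 0.494, 0 and 0.0495 CPM in high KPY (6.42, SE 0.91, edgeR FDR 0.0148).

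The highest bulk of each class was the same across this run, but the spread among low KPY bulks was not. Low KPY bulk 1 held 80.2% and 76.7% of the low KPY level in Eucgr.H03074 and Eucgr.H03075. From Eucgr.H03078 to Eucgr.H03082 it held 38.8% to 50.4%. High KPY bulk 1 held 69.8% to 100% of the high KPY level of the 6 genes, and low KPY bulk 1 was the highest library in each. Eucgr.H03076, inside the run, had 74.8, 11.2 and 5.28 CPM in low KPY and 4.30, 0 and 0.0991 CPM in high KPY. Its classes did not overlap, but it was not called (4.38, SE 1.73, edgeR FDR 0.0858). Eucgr.H03073, just before the run, was alike in all bulks at 15.4 to 18.8 CPM (-0.03, SE 0.13, edgeR FDR 0.854). The next identifiers before it were called higher without overlap, by less than the run: Eucgr.H03071 had 9.71, 20 and 15.2 CPM in low KPY and 4.86, 5.67 and 4.73 CPM in high KPY (1.56, SE 0.27, edgeR FDR 0.0152), and Eucgr.H03069 had a change of 2.92 (SE 0.52, edgeR FDR 0.0152). None of the run had a name in the sources used here, and neighbouring copies may share reads. A shorter run of this size of change lay on chromosome 1, where Eucgr.A02430, Eucgr.A02432 and Eucgr.A02434 had log2 fold changes of 4.28, 3.91 and 4.29. Over whole chromosomes the share of genes called ranged only from 40.6% on chromosome 3 to 47.6% on chromosome 11.

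**Figure D4:**
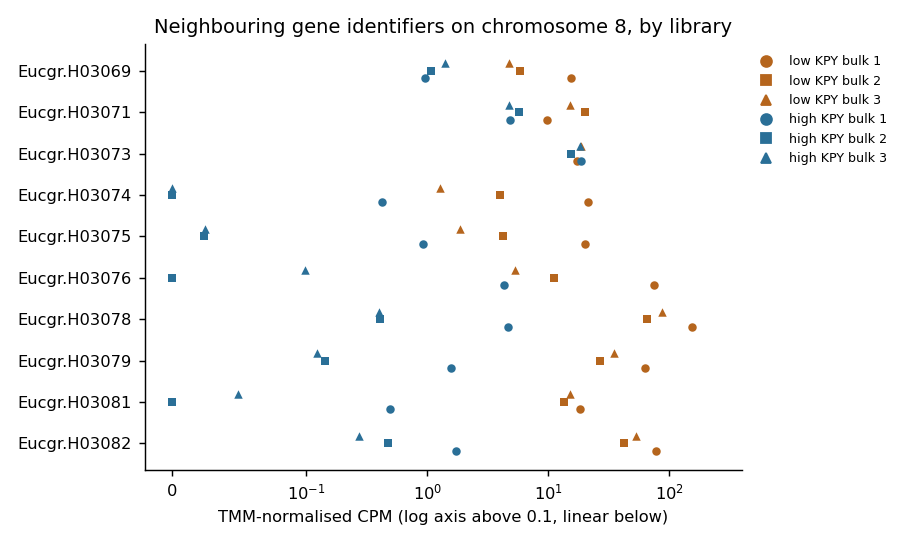
TMM-normalised CPM of neighbouring gene identifiers on chromosome 8, with 1 point per library on an axis that is logarithmic above 0.1 CPM and linear below. From Eucgr.H03074 to Eucgr.H03082 all low KPY points lie right of all high KPY points, and the circle of high KPY bulk 1 lies right of those of the other high KPY bulks; Eucgr.H03073 is at 15.4 to 18.8 CPM in all 6 libraries, and the classes are separate again in Eucgr.H03069 and Eucgr.H03071.

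Single bulks mostly kept the same rank within their class across the called genes. Low KPY bulk 2 was the lowest low KPY bulk in 91.2% of the 3883 genes called lower and the highest in 76.5% of the 3721 called higher, and it was the lowest in all 399 abundant genes that fell at least 2-fold. Low KPY bulk 1 was at the other end, highest in 77.7% of the lower and lowest in 70.1% of the higher genes. In high KPY the ends were bulk 3, highest in 60.9% of lower and lowest in 68.5% of higher genes, and bulk 2, lowest in 62.7% of lower and highest in 67.2% of higher genes. Among the 9376 genes not called the places were nearly even, with each low KPY bulk the lowest in 37.8%, 37.1% and 25.1%. These places are a description, since the same libraries gave the calls.

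**Figure D5:**
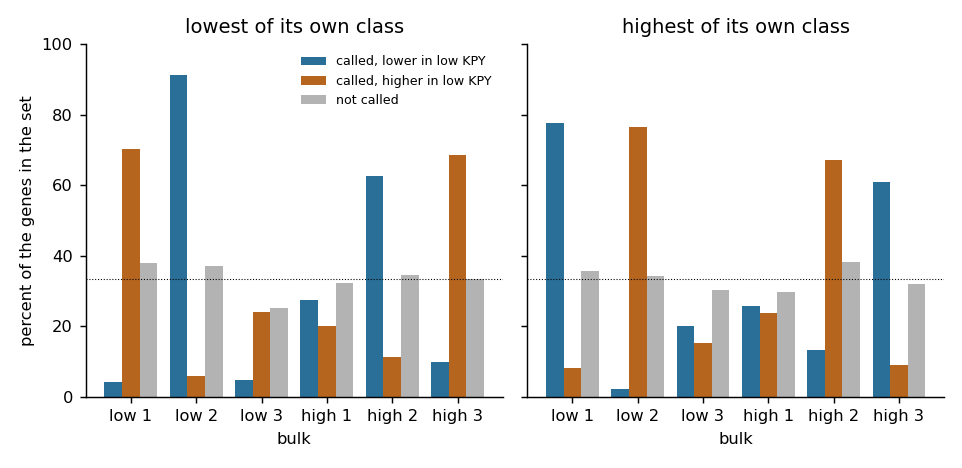
Percent of genes in which each bulk was the lowest (left) or the highest (right) of the 3 bulks of its own KPY class, for genes called lower (blue), called higher (brown) and not called (grey); the dotted line is an even split. Low KPY bulk 2 is the lowest in 91.2% of called lower genes, and the grey bars stay between 25.1% and 38.2%.

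Some genes differed between bulks of a class by more than between classes. Eucgr.F01134, without a name, had 90.9, 0.915 and 3.30 CPM in low KPY and 46.4, 2.14 and 104 CPM in high KPY, so that it was high in 1 low and 2 high KPY bulks and was not called (-0.68, SE 1.74, edgeR FDR 0.775). Its near neighbour Eucgr.F01140 had the same high bulks, with 44.5, 2.24 and 2.74 CPM in low KPY and 25, 2.16 and 53.5 CPM in high KPY. Eucgr.F04374 had 16.9, 113 and 80.6 CPM in low KPY and 1.38, 45.3 and 0.124 CPM in high KPY (2.17, SE 1.63, edgeR FDR 0.32). High KPY bulk 3 was more than 8-fold below the mean of the other high KPY bulks in 135 genes and above it in 3, while high KPY bulk 2 was 8-fold above in 72 and below in 17.

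The change at Florentine was not distinguished from that at Meunna for any of the genes tested by edgeR's quasi-likelihood test. Over the 12224 genes with 1 transcript in each trial the interaction of trial and KPY class called 0 genes (smallest FDR 0.114), with 790 at an unadjusted p under 0.05, while DESeq2 called 65. For Eucgr.B02486 the log2 fold change was -2.07 at Florentine and -2.98 at Meunna, and for metallothionein 2A (Eucgr.B02368) it was 3.08 and 2.49. Some of the strongest increases, Eucgr.E00360, Eucgr.H03078, Eucgr.H03081 and Eucgr.H03082, had no value at Meunna and were not compared.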

How the data were processed

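Total RNA of cambial scrapings was pooled into bulks and sequenced as 6 libraries per trial. After adapter removal in CLC Genomics Workbench and quality trimming in Popoolation, the authors aligned all reads of a trial to E. grandis with TopHat and Bowtie, built transcript models in Cufflinks from the reads alone, and counted each bulk with BEDtools. The genome version was not stated in the sources used here. The deposited values are raw read counts per transcript, already limited to transcripts of at least 1 CPM in 3 libraries; reads with several matches can be shared between near-identical copies. The table's columns give KPY class and bulk, and its trial is given by the table's own name. Neither the edgeR test nor the normalization is stated in the methods.

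The analysis used edgeR 4.0.16 in R 4.3.3 (quasi-likelihood F test, TMM, KPY class as the only factor, over all 23917 transcripts), DESeq2 1.42.0 and limma 3.58.1, and the test was tried on simulated data. The SE is the size of the log2 fold change divided by the square root of F. Depth limits rare genes, of which some libraries hold very few counts. Ranks of bulks and distances used log2(CPM + 0.05). Coverage of names is limited to the study's supplementary lists. The genes named were drawn from the 4 largest called changes without overlap per abundance class and direction and the 10 of highest CPM. They were also drawn from the 3 highest members of each of 29 lists and the 2 most apart per library. Not every gene of this rule is printed. Others are marked as chosen after their values were seen. The members and lists were chosen with earlier results of these data known. Alternatives were other normalizations, tests, filters, class bounds and thresholds, a replicate block, summed transcripts, and leaving out each library. Allele frequencies were not analysed here.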

Additional observations from a re-analysis of the deposited data

How the results depend on the processing

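No call of the 7604 turned its direction under any alternative except scaling by library size alone, where 164 did. Classes overlapped in only 18 of the 7604, so another test or leaving out a library could hardly turn a sign. Genes without a value under the minimum of 5 CPM were not counted as turned. RLE, upper-quartile, the exact, likelihood ratio and voom tests, filterByExpr, summed transcripts and identical counts entered once called 7493 to 8035 genes, and DESeq2 9121. Library size alone gave 2035 lower and 7196 higher calls, and turned the medians of the NBS-LRR (-0.04 to 0.26), pathogenesis-related (-0.07 to 0.25), glutathione transferase (-0.14 to 0.18) and starch breakdown lists (-0.07 to 0.25). At an FDR of 0.01 the quasi-likelihood test called 0 genes in total, in each direction and in each abundance class, with 9625 at an unadjusted p under 0.05. Leaving out 1 library gave 0 to 8206 calls (0 to 4319 lower, 0 to 3887 higher, 0 to 1357 abundant, 0 to 4778 moderate and 0 to 2071 rare), 6544 to 9595 with DESeq2 and 5020 to 8103 with the exact test; the cause was not tested. With the exact test there were 5067 calls, 2340 higher and 2741 moderate, without high KPY bulk 1, and 2398 higher and 2778 moderate without high KPY bulk 3. The interaction called 0 or 1 genes without 1 library, the 1 without Florentine low KPY bulk 2. All 88 called genes of the naming rule lost their call in the quasi-likelihood test without high KPY bulk 1 and without bulk 3. In that test 51 lost it without low KPY bulk 3 and 11 without high KPY bulk 2. At most 3 lost it under each other alternative at the same threshold, counting only genes that kept a value. The minimum of 5 CPM left some called genes of this set without a value, among them Eucgr.B00543 and Eucgr.H03539. A minimum of 5 CPM left 1081 rare calls. Bounds of 200 and 20 CPM gave 520 abundant and 3023 rare calls, and bounds of 50 and 5 CPM gave 2560 and 968. DESeq2 called 65 genes in the interaction. The replicate block called 7428 genes. Bulks of the same number correlated by -0.077, 0.26 and -0.0127 in their deviations, and bulks of different numbers by -0.319 to 0.32. Whether the numbers pair the bulks was not tested.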

Other observations

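Other gene lists were mixed in direction. Of 27 cytochromes P450 15 were called lower and 6 higher in low KPY (median -1.21). The 2 abundant members belong to family 98, which hydroxylates lignin precursors in Arabidopsis, and both were lower: Eucgr.A02189 had 887, 700 and 898 CPM in low KPY and 1436, 1218 and 1392 CPM in high KPY (-0.70, SE 0.16, edgeR FDR 0.0191), and Eucgr.A02190 had a change of -1.04 (SE 0.20, edgeR FDR 0.0163). Of 23 auxin response genes 13 were lower and 3 higher (median -1.02), and of 11 AP2/ERF factors 7 were lower and 3 higher (median -0.70). Of 11 dehydrins and LEA proteins 6 were lower and 3 higher (median -1.16). The 6 auxin response genes from the list with allele counts held 1 lower and 2 higher, with a median of 0.32. The 3 dehydrins and LEA proteins from that list held 1 lower and 2 higher, with a median of 0.31. The LEA gene Eucgr.K00036 rose, with 102, 148 and 134 CPM in low KPY and 54.7, 51.9 and 38.1 CPM in high KPY (1.41, SE 0.19, edgeR FDR 0.0148). Of 7 glutathione transferases 2 were higher, 0 lower and 5 not called, and of 3 starch breakdown genes 1 was lower and 1 higher. Galactinol synthase 4 (Eucgr.H02584), the first enzyme of raffinose synthesis, was lower, with 216, 175 and 178 CPM in low KPY and 405, 393 and 409 CPM in high KPY (-1.09, SE 0.11, edgeR FDR 0.0148). Without low KPY bulk 3 the lower and higher members were 5 and 3 of the cytochromes P450, 7 and 0 of the auxin response genes, 3 and 3 of the AP2/ERF factors and 4 and 1 of the dehydrins and LEA proteins. These lists share the limit on names described for the others, and 12 genes had called transcripts in both directions.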
